A study of Mus musculus with 5 samples.

Results

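One library of spleen cells taken after infusion of apoptotic allogeneic spleen cells was set against one library taken after infusion of saline, over every cell class that both held. A cell barcode entered when it carried 1000 or more unique molecular identifiers (UMIs, each standing for 1 captured RNA molecule) from 500 or more genes, with no more than 10% of them mitochondrial, and was not called a doublet. That left 2896 saline cells and 2110 apoptotic allogeneic cells, 5006 of the 16132 cells kept over all 5 libraries of the study. All recipients were C57/BL6 mice, and spleens were taken 48 hours after an intravenous infusion. The saline recipients received no cells. The cells infused into the others were splenic cells, either allogeneic (allo, Balbc) or isogeneic (iso, B6), and either live or apoptotic, so that the other libraries are live allogeneic, live isogeneic and apoptotic isogeneic. No genetic modification is named for any group. The number and age of the mice, the number of cells infused and the way apoptosis was brought about are not given in the sources used here. Each group is 1 library, so every difference below compares 2 libraries and has no replicate check.

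Apoptotic cells that enter the blood are cleared largely in the spleen and liver, where red pulp and marginal zone macrophages and conventional dendritic cells take them up through receptors for phosphatidylserine and complement. Dendritic cells (DCs) that have taken up dying cells without a danger signal present their antigens with little costimulation, and donor apoptotic cells have been used before transplantation for that reason. Type 1 conventional DCs (cDC1) cross-present antigen to CD8 T cells, type 2 conventional DCs (cDC2) present mainly to CD4 T cells, and plasmacytoid DCs (pDC) are specialised producers of type I interferon.

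Cells were named from marker genes and are called "-like" for that reason (the figures leave the suffix out); 12 classes held enough cells in both libraries to compare. The other population, an unnamed cluster led by Cd209a, had the markers of more than 1 class and was compared under that name. Levels are CPM, a gene's UMIs summed over the cells of a class in 1 library and scaled by the class's total UMIs there. A gene counted as higher or lower when its CPM differed at least 1.5-fold between the 2 libraries and it had at least 50 UMIs in the 2 sums together. Intervals are exact 95% intervals, Clopper-Pearson for shares and conditional Poisson for folds, and cover counting error only, not the variation between mice or libraries. The apoptotic allogeneic library is also called the treated library. Where 5 CPM values follow each other, their order is saline, apoptotic allogeneic, live allogeneic, live isogeneic and apoptotic isogeneic.

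The 2 libraries were of like size. The saline library held 18125660 UMIs and the apoptotic allogeneic library 16049698, with a median of 3421.5 and 4456.5 UMIs per kept cell (2267 to 4974 in the other libraries), so the apoptotic allogeneic cells were read more deeply. The 2 libraries shared 4 barcodes. The apoptotic allogeneic matrix starts at barcodes of 500 UMIs, whereas the others list all barcodes, so free RNA could not be measured in it. Each compared class carried its own markers: between 4 and 16 members of each class's list were measured, and at most 2 of a list were at 0.

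Erythroid-like and red-pulp-macrophage-like cells took a larger share after the apoptotic allogeneic infusion, and were the classes whose intervals did not overlap between the 2 libraries. Erythroid-like cells, nucleated red cell precursors, were 2.80% (2.23 to 3.46) of the saline cells and 4.98% (4.09 to 5.99) of the apoptotic allogeneic cells. Red-pulp-macrophage-like cells, which clear aged red cells and recycle their iron, were 2.18% (1.68 to 2.77) of the saline cells and 3.60% (2.85 to 4.49) of the apoptotic allogeneic cells. With a mitochondrial limit of 5% in place of 10% the macrophage-like shares were 1.84% and 2.23%, and at a clustering resolution of 2 the erythroid-like shares were 0.760% and 1.23%. No intervals were computed for these alternative shares, so whether they stay apart is not known. The erythroid-like share was 4.14%, 8.73% and 1.36% in the live allogeneic, live isogeneic and apoptotic isogeneic libraries, and the macrophage-like share was 3.04%, 1.55% and 1.36%. The macrophage-like share was thus the highest of the 5, and the erythroid-like share lay below that of the live isogeneic library. The erythroid-like cells of the live isogeneic library differed, with a median of 3605 UMIs against 35029 in saline and 42122 in apoptotic allogeneic. Of them, 25.5% held a UMI of the B cell markers Cd79a, Cd79b or Ms4a1, against 7.41% in saline and 9.52% in apoptotic allogeneic.

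Every other class had overlapping intervals. B-like cells were 35.1% (33.3 to 36.9) of the saline cells and 32.2% (30.2 to 34.3) of the apoptotic allogeneic cells, and with a mitochondrial limit of 5% the order turned, to 17.2% and 21.3%. Natural-killer-like cells were 5.01% (4.24 to 5.87) of the saline cells and 3.84% (3.06 to 4.75) of the apoptotic allogeneic cells, and pDC-like cells 4.28% (3.57 to 5.08) of the saline cells and 3.22% (2.51 to 4.07) of the apoptotic allogeneic cells. Both had a lower point estimate after the infusion, as did endothelial-like cells (2.24% against 1.47%). The cDC2-like share was 11.3% against 12.04%, the cDC1-like share 10.3% against 11.0%, the T-like share 9.29% against 8.82%, the mature-DC-like share 4.11% against 3.89% and the share of the Cd209a-led cluster 3.42% against 4.27%. Among the DC classes and that cluster alone, 967 cells in saline and 726 in the apoptotic allogeneic library, cDC2-like cells made up 33.9% and 35.0%, and cDC1-like cells 30.7% and 32.0%. The spleen cells of each condition were enriched separately for CD45+ cells and for DCs and the fractions were mixed back at a fixed ratio, so these shares are shares of enriched cells and not of the spleen. Basophil-and-mast-like (1.42% and 0.758%), neutrophil-like (13 and 17 cells) and classical-monocyte-like cells (8 and 9 cells) were too few to compare, and 4.70% and 5.21% of cells lay in other unnamed clusters.

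**Figure D1:**
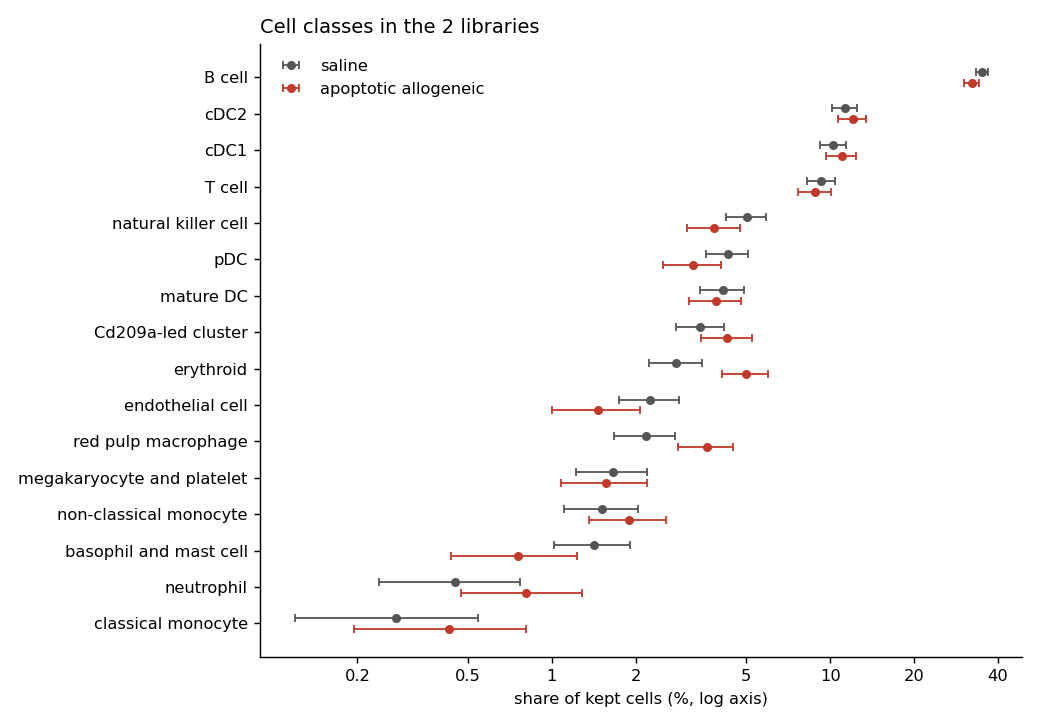
Share of kept cells (percent, x axis) of each marker-named class and of the Cd209a-led cluster in the saline and apoptotic allogeneic libraries, with 95% Clopper-Pearson intervals. Erythroid-like and red-pulp-macrophage-like cells are the classes whose intervals do not overlap, at 2.80% against 4.98% and 2.18% against 3.60%.

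Some genes for small proteins of ribosomes and mitochondria were higher after the apoptotic allogeneic infusion in most cell classes in which they were measured. A gene was taken as shared when it was measured in at least 5 of the 12 classes and was past 1.5-fold in the same direction in at least 2 of every 3 of them. Of 4592 genes measured in that many classes, 31 were shared higher (0.675%) and 3 shared lower (0.0653%). Of the 31, 10 encode ribosomal proteins, out of 84 ribosomal protein genes among the 4592, so most ribosomal protein genes were not shared. A further 3 are genes of the oxidative phosphorylation lists (mt-Nd3, Cox7c and Ndufa1), 2 are immediate early genes (Fos and Dusp1) and 2 encode histones (Hist1h2ae and Hist1h4d).

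Tomm7, a small subunit of the outer mitochondrial membrane translocase through which proteins enter the organelle, was past 1.5-fold higher in 11 of 11 classes. Its mean level over the 12 classes was 115, 243, 269, 266 and 201 CPM. Saline was the lowest of the 5 libraries and the apoptotic allogeneic level lay between those of the other infusions. Rpl39, a component of the large ribosomal subunit, was higher in 12 of 12 classes, at mean levels of 1979, 3743, 3705, 2778 and 3269.6 CPM. Here the apoptotic allogeneic library was the highest and saline again the lowest. Cox7c, a subunit of cytochrome c oxidase, was higher in 9 of 12 classes, at 319.9, 538, 632, 584 and 495 CPM. Ndufa1, a subunit of complex I, was higher in 6 of 9, at 55.5, 97.9, 146, 127 and 88.7 CPM. In both, saline was the lowest library and the live allogeneic library the highest. Rpl41 and Rps27rt belong to the shared genes as well, but near-identical copies exist for them and their counts are uncertain.

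Saline was the lowest of the 5 libraries in 29 of the 31 genes on this mean, and the apoptotic allogeneic library was the highest in 15. The apoptotic allogeneic level was above the apoptotic isogeneic level in 27 of the 31, above the live isogeneic in 23 and above the live allogeneic in 19. These counts are descriptions, since the 31 were chosen on the apoptotic allogeneic and saline values and every comparison with saline shares the same saline library.

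The shared genes had short transcripts. Their median annotated transcript length was 558 bases, against 2603 bases for all genes measured in as many classes, and 27 of the 31 were under 1200 bases. Among all 140 genes under 600 bases the median of the log2 ratios was 0.15, whereas among the 1222 genes of 4000 bases and over it was -0.10. These used each gene's median ratio over classes. On CPM averaged over the classes, the measure used for the other libraries, the apoptotic allogeneic medians were 0.175 and -0.086. The live allogeneic and apoptotic isogeneic libraries, set against the same saline library, had medians of 0.33 and 0.25 in the shortest bin and -0.21 and -0.12 in the longest. The live isogeneic library had 0.0015 in the shortest bin. Transcript length therefore moved together with the shared genes, and its part in their higher levels was not tested. Restricted to genes of at least 1000 bases, a setting chosen after seeing the data, 7 genes were shared higher.

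**Figure D2:**
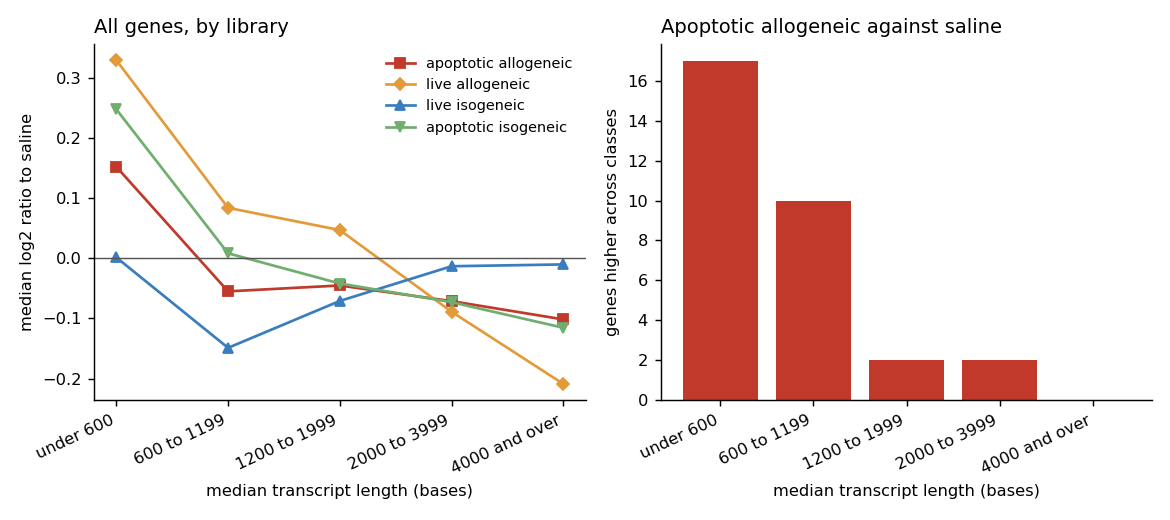
Left, the median log2 ratio of CPM to saline (y axis) over all genes of each transcript length bin (x axis, bases) for each of the 4 infused libraries; right, the number of genes shared higher after the apoptotic allogeneic infusion in each bin. For apoptotic allogeneic a gene's ratio is its median over classes, and for the other libraries it is the ratio of CPM averaged over classes. The shortest bin has the highest median in every library, 0.15 for apoptotic allogeneic, and 27 of the 31 shared genes lie under 1200 bases.

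Of the 3 genes shared lower, Gm10076, annotated as a long non-coding RNA, was lower in 10 of 11 classes, at mean levels of 338, 184, 259.6, 749 and 109 CPM. The apoptotic isogeneic library was lower still and the live isogeneic library the highest, and its counts are uncertain because reads may be shared with near-identical copies. Mylip, an E3 ubiquitin ligase that degrades the LDL receptor, was lower in 4 of 5 classes, at 52.7, 47.2, 33.5, 56.8 and 51.8 CPM. Ski, a co-repressor of TGF-beta signalling, was lower in 4 of 6, at 44.3, 37.8, 26.1, 40.6 and 36.4 CPM. In both the live allogeneic library was the lowest.

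**Figure D3:**
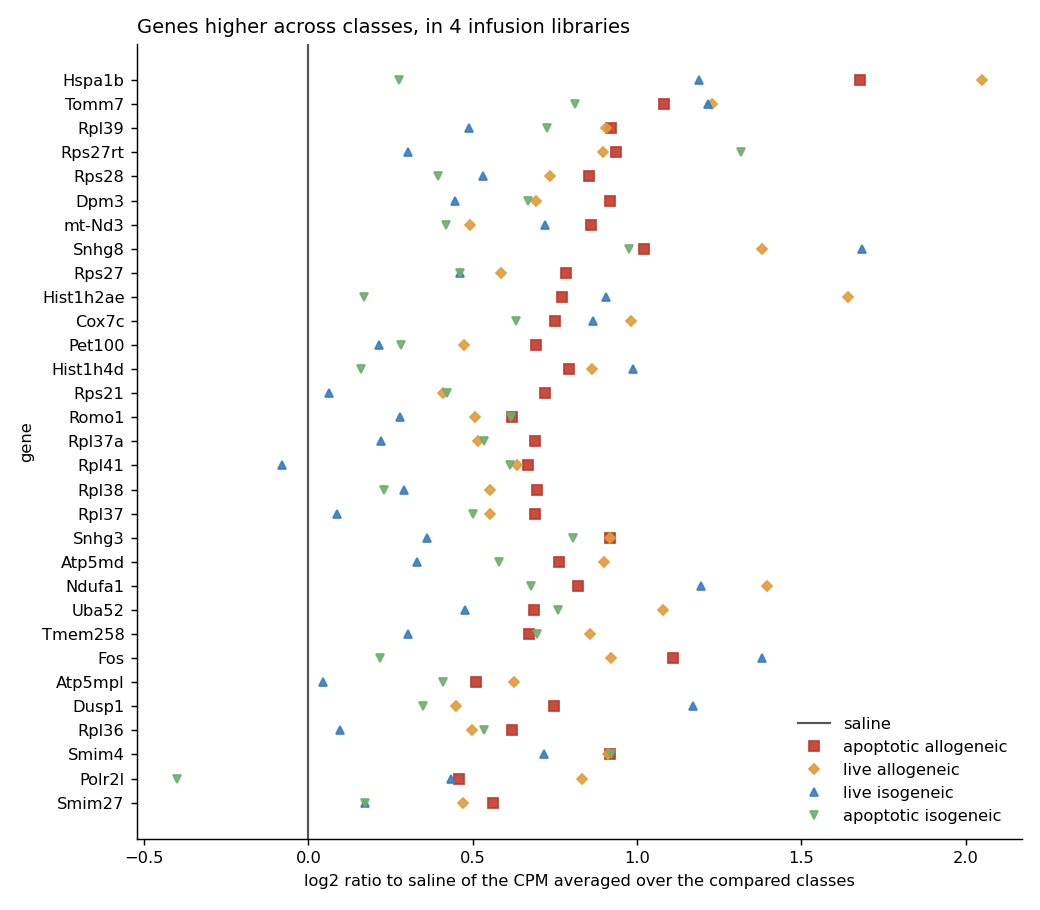
Log2 ratio to saline (x axis) of the CPM averaged over the 12 classes for each of the 31 genes shared higher (y axis), in each of the 4 infused libraries, with the line at 0 standing for saline. The genes were chosen on the apoptotic allogeneic values, which lie right of the line throughout and are the highest of the 5 libraries in 15 genes.

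Hspa1b, an inducible HSP70 gene, had the highest median log2 ratio over classes of the genes named across classes, 1.55 over 6 classes. Hspa1a and Hspa1b, neighbouring genes that encode nearly the same stress-induced chaperone, are activated by heat shock factor when unfolded proteins gather in the cell. Reads from the pair cannot be split with certainty, so they are summed here. Their RefSeq promoters (build GRCm38.p6, the minus strand, the 250 bases up to the start site) are shown because the genes moved together and differ at 3 of 250 promoter bases (98.8% identical). They span chr17:34959239-34959488 for Hspa1b and chr17:34972157-34972406 for Hspa1a, 5′ of the first exon of each. Capitals mark GAANNTTC, the core of a heat shock element, which begins 104 bases before the start site in both.

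Hspa1b: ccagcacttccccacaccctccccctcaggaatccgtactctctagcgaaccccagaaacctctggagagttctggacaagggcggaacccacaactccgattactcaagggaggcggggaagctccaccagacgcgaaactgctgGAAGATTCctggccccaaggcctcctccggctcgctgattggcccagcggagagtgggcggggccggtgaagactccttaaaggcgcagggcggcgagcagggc

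Hspa1a: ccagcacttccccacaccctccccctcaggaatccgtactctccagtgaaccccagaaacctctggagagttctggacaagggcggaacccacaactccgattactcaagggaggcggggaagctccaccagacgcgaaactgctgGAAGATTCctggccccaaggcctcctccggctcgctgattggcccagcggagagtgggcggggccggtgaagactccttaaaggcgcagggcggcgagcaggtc

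The letters GAANNTTC, which read the same on both strands, occur in 6.69% of the 32851 RefSeq promoter windows of this length, and the match is a description of these sequences.

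The HSP70 pair was past 1.5-fold higher after the apoptotic allogeneic infusion in the 8 populations where it had at least 50 UMIs, with folds from 1.68 to 14.8. Several of these reached 50 UMIs mainly through the treated library (7 and 89 UMIs in B-like, 12 and 82 in erythroid-like, 20 and 87 in T-like and 11 and 46 in non-classical-monocyte-like cells), so their number is partly set by that minimum. Below it, red-pulp-macrophage-like cells had 11 and 20 UMIs and a fold of 1.44 (95% interval 0.659 to 3.33). In cDC2-like cells the pair stood at 62.5, 220.3, 274, 127 and 60.6 CPM, a fold of 3.52 (95% interval 2.83 to 4.41) against saline. The saline and apoptotic isogeneic libraries were low and alike, and both allogeneic libraries were high. In cDC1-like cells it stood at 23.1, 105, 154, 67.8 and 34.4 CPM, with a fold of 4.52 (95% interval 3.45 to 6.0). In T-like cells the levels were 21.4, 104, 143, 15.04 and 36.4 CPM, with a fold of 4.86 (95% interval 2.96 to 8.34), and in B-like cells 2.34, 34.7, 66.3, 15.2 and 7.26 CPM, with a fold of 14.8 (95% interval 6.91 to 37.9). In each of these the live allogeneic library was the highest and the apoptotic allogeneic library came next. In mature-DC-like cells the levels were 56.4, 236, 126, 211 and 76.1 CPM, and there the apoptotic allogeneic library was the highest. The apoptotic allogeneic level was above the live isogeneic and the apoptotic isogeneic level in 8 of 8 populations and above the live allogeneic level in 2. The Cd209a-led cluster had the smallest fold, 1.68 (95% interval 1.22 to 2.32), from the highest saline level of the 8.

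The chaperone list as a whole was not higher. The heat shock list, HSP70 pair included, had 11 of 171 gene-and-class measurements past 1.5-fold higher and 4 past 1.5-fold lower, with a median log2 ratio over classes of -0.03, beside 3.37% higher, 5.59% lower and a median of -0.06 over all measured genes. Hsph1, a nucleotide exchange factor for HSP70, was lower in cDC2-like cells at 33.9 CPM in saline and 17.0 CPM in apoptotic allogeneic.

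Immediate early genes were on balance higher after the apoptotic allogeneic infusion. These genes, among them Fos, Jun and Dusp1, are transcribed soon after many stimuli, before any new protein is made. Their list had a median log2 ratio above 0 in 12 of 12 classes (0.01 to 0.58, median 0.19) and 43 of 203 gene-and-class measurements past 1.5-fold higher and 7 past 1.5-fold lower, beside 3.37% and 5.59% over all measured genes. Fos, a subunit of the AP-1 transcription factor, was past 1.5-fold higher in 7 of 9 classes, at mean levels of 49.3, 106, 93.4, 128 and 57.4 CPM. Dusp1, a phosphatase that ends MAP kinase signals, was higher in 7 of 9, at 65.0, 109, 88.8, 146 and 82.8 CPM. In both the live isogeneic library was the highest and saline the lowest, so all 4 infused libraries were above saline. Thinned to 1000 UMIs a cell, the list's median turned to -0.09 in endothelial-like and to -0.16 in red-pulp-macrophage-like cells.

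The Fos promoter lies at chr12:85473640-85473889 on the plus strand of GRCm38.p6 and holds a cAMP response element core, TGACGT, 66 bases before the start, shown in capitals because Fos had the highest median ratio of the immediate early genes named across classes. These letters occur, on either strand, in 6.47% of the RefSeq promoter windows.

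Fos: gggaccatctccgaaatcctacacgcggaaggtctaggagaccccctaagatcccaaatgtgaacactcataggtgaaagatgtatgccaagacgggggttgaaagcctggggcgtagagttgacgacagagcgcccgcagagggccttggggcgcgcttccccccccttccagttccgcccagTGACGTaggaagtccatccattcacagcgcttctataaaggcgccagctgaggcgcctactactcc

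Among the classes given here, Fos had its largest folds in monocyte-like and macrophage-like cells. In non-classical-monocyte-like cells Fos stood at 42.0, 246, 123, 158 and 139 CPM, a fold of 5.86 (95% interval 2.49 to 16.8). The apoptotic allogeneic library was the highest and saline the lowest. In red-pulp-macrophage-like cells Fos stood at 31.1, 179.9, 123, 93.7 and 90.8 CPM, a fold of 5.78 (95% interval 2.61 to 15.1), though 23 of the 51 UMIs of the treated library came from 1 cell. Without cells holding a B cell marker UMI the fold was 3.32 (95% interval 1.10 to 13.4), with 101 CPM in the treated library against 162 in the live allogeneic and 132 in the apoptotic isogeneic one. Jun, the AP-1 partner of Fos, stood there at 213, 677, 92.4, 181 and 212 CPM, a fold of 3.17 (95% interval 2.30 to 4.45), and was well above all 4 other libraries. Without cells holding a B cell marker UMI its fold was 2.50 (95% interval 1.63 to 3.94). Among those cells a Jun UMI was found in 27.3% of saline, 22.8% of treated and 47.1% of apoptotic isogeneic cells. The higher Jun level thus did not come with a larger share of cells holding it. The macrophage-like list had 7 of 14 measured members past 1.5-fold higher, 1 past 1.5-fold lower and a median log2 ratio of 0.58. That median was -0.04 with a mitochondrial limit of 5% and 0.20 without cells holding a B cell marker UMI.

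Folds were smaller in lymphocytes. Fos in T-like cells stood at 26.7, 69.3, 49.3, 90.3 and 33.1 CPM, and in B-like cells at 22.1, 43.7, 44.0, 103 and 27.0 CPM, folds of 2.59 and 1.98. Fosb, another Fos family member, stood at 61.2, 114, 67.6, 151 and 80.9 CPM in B-like cells, a fold of 1.86 (95% interval 1.54 to 2.25), with the live isogeneic library the highest, and 1.45 with a mitochondrial limit of 5%. Klf2, a transcription factor that restrains inflammatory activation, stood at 56.1, 113, 95.9, 89.8 and 84.7 CPM in cDC2-like cells, a fold of 2.01 (95% interval 1.56 to 2.60). Dusp1 in endothelial-like cells stood at 121, 295, 191, 109.7 and 197 CPM, a fold of 2.43 (95% interval 1.55 to 3.86), the highest of the 5 libraries. The erythroid-like list had 7 of 13 measured members past 1.5-fold higher, 0 past 1.5-fold lower and a median log2 ratio of 0.33, the T-like list 4 of 19 measured members past 1.5-fold higher, 0 past 1.5-fold lower and a median log2 ratio of 0.25 and the cDC2-like list 4 of 26 measured members past 1.5-fold higher, 0 past 1.5-fold lower and a median log2 ratio of 0.16.

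Interferon-stimulated genes were on balance lower after the apoptotic allogeneic infusion than after saline. Type I interferons induce a broad set of such genes, among them Isg15, a ubiquitin-like modifier, and the Ifit genes, which bind foreign RNA. The 44-gene list had a median log2 ratio below 0 in 10 of 12 classes (-0.31 to 0.37, median -0.19) and 5 of 205 gene-and-class measurements past 1.5-fold higher and 30 past 1.5-fold lower, which is 2.44% and 14.6% against 3.37% and 5.59% over all measured genes. Its summed level was below saline in 10 of the 13 populations and the lowest of all 5 libraries in 7. The live allogeneic library had the highest sum in 12 of 13. A cluster led by Ifit3, whose best class was B cell, stayed unnamed and is outside these sums. It held 18.4% of live allogeneic cells, against 1.04% of saline and 0.948% of apoptotic allogeneic cells.

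In cDC2-like cells the list summed to 3525, 3106, 6920.1, 3212 and 3748 CPM, in T-like cells to 3347, 2589, 6178, 3275 and 2963 CPM and in the Cd209a-led cluster to 6055, 5102, 12862, 5422 and 6619 CPM. In each the apoptotic allogeneic sum was the lowest of the 5 and the live allogeneic sum the highest. Isg15 in the Cd209a-led cluster stood at 121, 58.5, 640.4, 109.7 and 142 CPM, a fold of 0.482 (95% interval 0.324 to 0.710). In T-like cells Isg15 stood at 62.0, 28.7, 301, 49.5 and 52.9 CPM, a fold of 0.462 (95% interval 0.275 to 0.756). In both the apoptotic allogeneic library was the lowest and the live allogeneic library several times above the rest. Isg15 in cDC1-like cells stood at 39.3, 20.4, 60.3, 26.1 and 20.6 CPM, where the apoptotic isogeneic library was as low, and its fold of 0.520 was 0.74 without cells holding a UMI of a B cell marker. Ifit3 in cDC2-like cells stood at 37.4, 19.4, 143, 25.8 and 43.5 CPM, a fold of 0.519 (95% interval 0.329 to 0.806).

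Members outside the Isg15 and Ifit group were lower too. Slfn5, a Schlafen family member, stood at 109, 63.5, 108, 100.4 and 86.0 CPM in cDC1-like cells, a fold of 0.580 (95% interval 0.479 to 0.6995), with the apoptotic allogeneic library the lowest. Ifi27l2a stood at 111, 49.6, 268, 149.9 and 93.3 CPM in mature-DC-like cells, a fold of 0.448 (95% interval 0.257 to 0.755). Without cells that held a UMI of a B cell marker, the mature-DC-like list median was 0.07, so its sign turns there. Red-pulp-macrophage-like cells had 0 of 12 measured members past 1.5-fold higher, 2 past 1.5-fold lower and a median log2 ratio of -0.09. That median turned to 0.43 with cells thinned to 1000 UMIs, 0.59 with a mitochondrial limit of 5% and 0.32 without cells holding a B cell marker UMI. Thinning also turned the pDC-like median from -0.05 to 0.20.

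The interferon-gamma list had no common direction, with 7 of 88 gene-and-class measurements past 1.5-fold higher and 7 past 1.5-fold lower, and class medians from -0.24 to 0.87. Single members were far lower in single populations, and the members that were higher are not named here. Cxcl10, the chemokine that draws CXCR3+ T cells, stood at 128, 10.6, 311, 158 and 50.2 CPM in the Cd209a-led cluster, a fold of 0.0832 (95% interval 0.0347 to 0.172). Iigp1, an immunity-related GTPase, stood at 16.8, 2.87, 48.7, 10.2 and 5.16 CPM in cDC1-like cells, a fold of 0.170 (95% interval 0.0696 to 0.363). For both genes the apoptotic allogeneic library was the lowest and the live allogeneic library the highest.

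The Isg15 promoter, at chr4:156200819-156201068 on the minus strand of GRCm38.p6, is shown because Isg15 had the lowest median ratio over classes of the interferon genes named. Capitals mark the core of an interferon-stimulated response element (GAAA, any 2 bases and GAAA again) in 3 overlapping matches, which begin between 78 and 66 bases before the start. It occurs, on either strand, in 2.98% of the RefSeq promoter windows.

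Isg15: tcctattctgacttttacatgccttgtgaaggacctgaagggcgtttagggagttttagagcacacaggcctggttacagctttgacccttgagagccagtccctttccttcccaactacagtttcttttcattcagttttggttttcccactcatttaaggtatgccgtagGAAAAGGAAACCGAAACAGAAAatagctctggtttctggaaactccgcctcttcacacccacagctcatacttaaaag

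**Figure D4:**
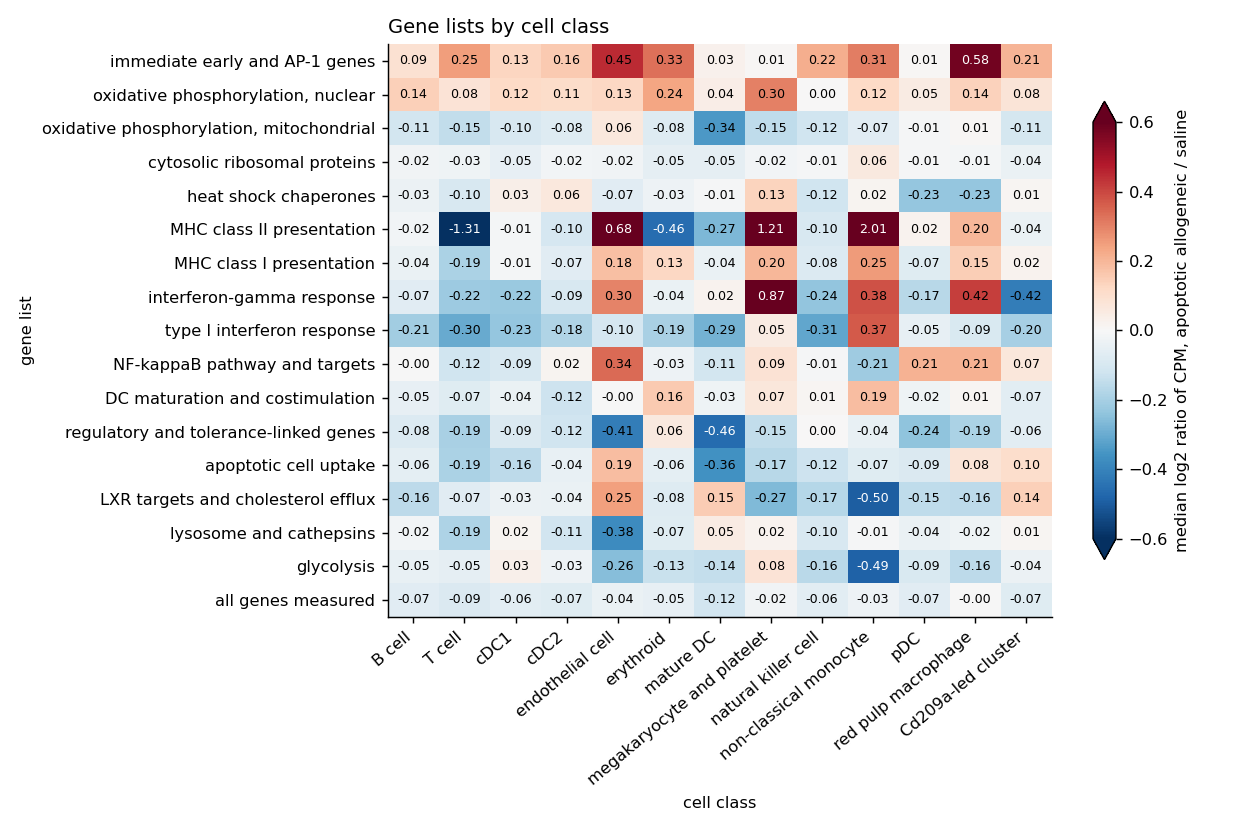
Median log2 ratio of apoptotic allogeneic to saline CPM over the measured members of each gene list (lines) in each class and in the Cd209a-led cluster (columns), written in each cell and coloured from blue (lower) to red (higher), with all measured genes in the bottom line. The immediate early line is above 0 in the 12 named classes, and the type I interferon line is below 0 in 10 of 12.

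Nuclear genes of oxidative phosphorylation leaned higher by small amounts, whereas the medians of the mitochondrially encoded and the ribosomal protein lists were below 0 in most classes. The nuclear-encoded oxidative phosphorylation list had a median log2 ratio above 0 in 12 of 12 classes (median 0.12) and 38 of 480 gene-and-class measurements past 1.5-fold higher and 7 past 1.5-fold lower, beside 3.37% and 5.59% over all measured genes. Thinned to 1000 UMIs a cell, its median turned to -0.12 in endothelial-like and -0.26 in non-classical-monocyte-like cells. Cox7c in cDC1-like cells stood at 370.4, 674, 739.8, 745 and 569 CPM, a fold of 1.82 (95% interval 1.69 to 1.96). Ndufa1 in B-like cells stood at 35.1, 79.6, 126, 97.4 and 78.1 CPM, a fold of 2.27 (95% interval 1.78 to 2.90). Tomm7 in B-like cells stood at 80.9, 176, 218, 191 and 145 CPM, a fold of 2.17 (95% interval 1.85 to 2.55). For each of these saline was the lowest library, and a library of live cells was the highest. The mitochondrially encoded list had a median of -0.09, below 0 in 10 of 12 classes and below the -0.06 of all genes. It had 20 of 142 gene-and-class measurements past 1.5-fold higher and 0 past 1.5-fold lower, of which mt-Nd3, past 1.5-fold in 11 of 12 classes, supplied 11. Ribosomal protein genes had 95 of 804 gene-and-class measurements past 1.5-fold higher and 0 past 1.5-fold lower, yet their median was below 0 in 11 of 12 classes (median over classes -0.02), and it was 0.063 with median-of-ratios scaling.

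Lists for tolerance and clearance of dying cells had medians over classes below 0, as did all measured genes. Over all measured genes 3.37% were past 1.5-fold higher and 5.59% lower, and the median was below 0 in 12 of 12 classes. The regulatory and tolerance-linked list had 6 of 98 gene-and-class measurements past 1.5-fold higher (6.12%) and 13 past 1.5-fold lower (13.3%), with a median of -0.13. The list of receptors and bridging proteins for apoptotic cells had 2 of 75 gene-and-class measurements past 1.5-fold higher and 5 past 1.5-fold lower, and targets of LXR, sterol receptors that become active in cells that have engulfed others, had 1 of 86 gene-and-class measurements past 1.5-fold higher and 10 past 1.5-fold lower. Glycolysis genes had 1 of 125 gene-and-class measurements past 1.5-fold higher and 11 past 1.5-fold lower, lysosome and cathepsin genes 3 of 205 gene-and-class measurements past 1.5-fold higher and 9 past 1.5-fold lower and NF-kappaB pathway genes 6 of 157 gene-and-class measurements past 1.5-fold higher and 7 past 1.5-fold lower. In the same order the shares higher and lower were 2.67% and 6.67%, 1.16% and 11.6%, 0.8% and 8.8%, 1.46% and 4.39%, and 3.82% and 4.46%. The uptake shares were thus near those of all genes. The median over classes was -0.08, -0.12, -0.11, -0.03 and -0.0031 for these 5 lists in turn, against -0.06 for all genes, so the last 2 lay above it. The Cd209a-led cluster, which is not among the 12 classes, had medians above 0 for uptake and LXR targets. It had 4 of 12 measured members past 1.5-fold higher, 0 past 1.5-fold lower and a median log2 ratio of 0.10 for uptake and 2 of 8 measured members past 1.5-fold higher, 0 past 1.5-fold lower and a median log2 ratio of 0.14 for LXR targets.

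Within single classes more genes were lower than higher in 11 of the 13 populations, but that balance depends on the scaling. Of the genes past 1.5-fold, 33.7% were higher in cDC2-like, 38.8% in cDC1-like, 35.9% in B-like and 31.9% in T-like cells, and with median-of-ratios scaling 52.6%, 59.6%, 57.6% and 52.2%. The share likewise moved from 25.1% to 48.7% in mature-DC-like, 29.5% to 47.2% in natural-killer-like, 35.3% to 53.8% in pDC-like and 45.9% to 62.7% in erythroid-like cells, and from 42.0% to 60.4% in the Cd209a-led cluster. That scaling moved the median log2 ratio of all genes by over 0.1 in mature-DC-like cells alone, from -0.12 to 0.00072.

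In cDC2-like cells, 166 of 6437 measured genes (2.58%) were past 1.5-fold higher and 327 (5.08%) past 1.5-fold lower. Samsn1, an adaptor that dampens lymphocyte receptor signals, stood at 86.5, 154, 95.9, 126 and 87.0 CPM, a fold of 1.78 (95% interval 1.44 to 2.19), with the live isogeneic library next. Entpd1 (CD39), which degrades extracellular ATP, was lower at 50.8 CPM in saline and 29.7 CPM in apoptotic allogeneic, and Vsir (VISTA), an inhibitory receptor, was lower at 88.2 CPM in saline and 56.4 CPM in apoptotic allogeneic, though its fold was 0.885 with cells thinned to 1000 UMIs. The costimulatory genes Cd86 and Cd83 stood at 71.9 against 62.5 CPM and 101 against 119 CPM and did not pass 1.5-fold. Class II genes had 0 of 14 measured members past 1.5-fold higher, 0 past 1.5-fold lower and a median log2 ratio of -0.10. In all, 6 genes stood at least 1.5-fold above and 25 at least 1.5-fold below each of the other 4 libraries, and the saline library likewise had 28 genes above and 13 below all others.

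In cDC1-like cells, 198 of 7267 measured genes (2.72%) were past 1.5-fold higher and 312 (4.29%) past 1.5-fold lower. Hist1h2ab, a core histone, stood at 25.6, 75.6, 42.9, 41.4 and 26.9 CPM, a fold of 2.95 (95% interval 2.25 to 3.91), above all other libraries. Mcm5, a subunit of the replicative helicase, stood at 33.3, 56.6, 78.4, 71.2 and 66.5 CPM, a fold of 1.70 (95% interval 1.31 to 2.22), with saline the lowest. The S phase list had 9 of 22 measured members past 1.5-fold higher, 0 past 1.5-fold lower and a median log2 ratio of 0.40, but thinned to 1000 UMIs a cell its median was -0.23. Il12b, the p40 subunit of interleukin 12, stood at 15.4, 32.3, 0, 7.12 and 20.1 CPM, a fold of 2.09 (95% interval 1.44 to 3.07), and 3.43 with doublets kept. Entpd1 was higher here, at 27.0, 47.3, 38.0, 31.5 and 24.7 CPM, a fold of 1.75 (95% interval 1.31 to 2.35), the opposite of its direction in cDC2-like cells; the difference between the classes was not tested. Lower were Cd40 at 38.6 CPM in saline and 21.2 CPM in apoptotic allogeneic, Cd80 at 29.1 CPM in saline and 15.4 CPM in apoptotic allogeneic, both costimulatory, and Anxa2, a calcium-dependent membrane-binding protein, at 101, 43.7, 85.9, 57.7 and 90.02 CPM, a fold of 0.431 (95% interval 0.346 to 0.535). Without cells holding a UMI of a B cell marker the fold of Cd40 was 0.90. Anxa2 was the lowest in the apoptotic allogeneic library and the highest in saline. Class II genes had 0 of 13 measured members past 1.5-fold higher, 0 past 1.5-fold lower and a median log2 ratio of -0.01.

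In the Cd209a-led cluster, 172 of 3508 measured genes (4.90%) were past 1.5-fold higher and 238 (6.78%) past 1.5-fold lower. Genes known from macrophages were among the higher ones. Lyz2 (lysozyme), chosen after its values were seen, stood at 1821, 4126, 5779.5, 2931 and 2264 CPM, a fold of 2.27 (95% interval 2.12 to 2.43). Saline was the lowest library and the live allogeneic library the highest. C1qa, part of the complement component that coats dying cells, stood at 175, 320.4, 402, 214 and 75.3 CPM, a fold of 1.83 (95% interval 1.45 to 2.32). Apoe, a lipid carrier, stood at 728, 1345, 556, 477 and 639.8 CPM, a fold of 1.85 (95% interval 1.65 to 2.07), and was the highest of the 5. With a mitochondrial limit of 5% the folds of Apoe and C1qa were 15.3 and 5.33. Cstb, a cathepsin inhibitor, stood at 26.2, 77.1, 165, 86.8 and 59.1 CPM, a fold of 2.94 (95% interval 1.67 to 5.48), and Samsn1 at 54.1, 138, 148, 111 and 68.1 CPM, a fold of 2.56 (95% interval 1.71 to 3.90). Cd63, a lysosomal tetraspanin, stood at 22.9, 95.7, 263, 83.4 and 32.3 CPM, with 26 of its 72 UMIs in the treated library from 1 cell, and its fold of 4.17 was 21.9 with a mitochondrial limit of 5%. Mgl2, a lectin of cDC2, was lower at 67.2, 17.3, 9.73, 84.5 and 23.3 CPM, a fold of 0.257 (95% interval 0.126 to 0.490), and Cd244a, a receptor of the SLAM family, at 164, 73.1, 45.4, 101 and 91.4 CPM, a fold of 0.446 (95% interval 0.315 to 0.626). Saline was near the top of the range for both. The marker list of red pulp macrophages, which itself holds C1qa, had 6 of 9 measured members past 1.5-fold higher, 0 past 1.5-fold lower and a median log2 ratio of 0.65. Its summed level was 709.7 CPM in saline and 1176 CPM in apoptotic allogeneic, with 0 and 1 of 15 markers at 0 in the 2 libraries in turn. The mature DC list, which holds Samsn1 and Cd63, had 3 of 6 measured members past 1.5-fold higher, 1 past 1.5-fold lower and a median log2 ratio of 0.35. The part of these markers in the result was not tested.

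In mature-DC-like cells, which have upregulated Ccr7 and costimulation, 93 of 2338 measured genes (3.98%) were past 1.5-fold higher and 278 (11.9%) past 1.5-fold lower. Il12b stood at 68.9, 302, 0, 84.9 and 83.0 CPM, a fold of 4.38 (95% interval 2.97 to 6.64), but 78 of the 128 treated UMIs came from 1 cell, and the fold without the top cell of each library was 2.26. Slc8b1, a mitochondrial sodium-calcium exchanger, was higher at 39.7 CPM in saline and 151 CPM in apoptotic allogeneic, a fold of 3.81 that was 1.66 with clustering of the 2 libraries alone. Prkcb, a protein kinase C, stood at 194, 59.0, 89.2, 101 and 152 CPM, a fold of 0.304 (95% interval 0.187 to 0.477), the lowest of the 5. Il1b stood at 104, 30.7, 84.0, 48.7 and 55.3 CPM, a fold of 0.294 (95% interval 0.146 to 0.549), and clustering the 2 libraries alone turned it to 1.204. Erythroid markers were higher in this class, with 4 of 4 measured members past 1.5-fold higher, 0 past 1.5-fold lower and a median log2 ratio of 6.71 and summed levels of 45.9 CPM in saline and 4035 CPM in apoptotic allogeneic. The cDC2 list there had 0 of 6 measured members past 1.5-fold higher, 4 past 1.5-fold lower and a median log2 ratio of -0.68, summing to 5298 CPM in saline and 3634 CPM in apoptotic allogeneic, and the B cell list summed to 714 CPM in saline and 293 CPM in apoptotic allogeneic. Their part in the differences of this class was not tested. In pDC-like cells, 125 of 3566 measured genes (3.51%) were past 1.5-fold higher and 229 (6.42%) past 1.5-fold lower. Samsn1 stood there at 185, 316, 229.9, 216 and 191 CPM, a fold of 1.71 (95% interval 1.34 to 2.17), the highest of the 5. Klf4, a zinc-finger factor, stood at 33.4, 87.4, 13.4, 46.7 and 16.5 CPM, a fold of 2.61 (95% interval 1.55 to 4.51), and Rnf111, a ubiquitin ligase of TGF-beta signalling, was higher at 34.8 CPM in saline and 91.5 CPM in apoptotic allogeneic. Thus Samsn1 was past 1.5-fold higher in cDC2-like and pDC-like cells and in the Cd209a-led cluster. Among pDC-like cells, 26.6% in saline and 48.5% in apoptotic allogeneic held a UMI of the B cell markers Cd79a, Cd79b or Ms4a1. The B cell list there had 2 of 4 measured members past 1.5-fold higher and 1 past 1.5-fold lower. It summed to 2066 CPM in saline and 1885 CPM in apoptotic allogeneic, and its part in the pDC-like differences was not tested.

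In non-classical-monocyte-like cells, the patrolling monocytes of blood and spleen, 82 of 1021 measured genes (8.03%) were past 1.5-fold higher and 81 (7.93%) past 1.5-fold lower. The leading genes were those of MHC class II, which present extracellular antigen to CD4 T cells. H2-Aa, the alpha chain of I-A, stood at 364, 2024, 399, 446 and 1476 CPM, a fold of 5.56 (95% interval 4.15 to 7.59). H2-Ab1 stood at 420.1, 2058, 552, 446 and 1526 CPM, and Cd74, the invariant chain, at 1813, 6135, 2163, 1707 and 3863 CPM, a fold of 3.38 (95% interval 2.95 to 3.89). For all 3 the apoptotic allogeneic library was the highest and the apoptotic isogeneic library next, with the other 3 close together. The class II list had 4 of 6 measured members past 1.5-fold higher, 0 past 1.5-fold lower and a median log2 ratio of 2.01. B cell markers moved with them: 0 of 44 saline cells and 7 of 40 apoptotic allogeneic cells held a UMI of Cd79a, Cd79b or Ms4a1. The B cell marker list summed to 385 CPM in saline and 1247 CPM in apoptotic allogeneic, with 9 and 1 of 15 markers at 0. Cd79a had 0 UMIs in saline and 29 in the treated library, at least 7.72-fold higher against a floor of 3 counts. Without those cells, a setting chosen after seeing the data, the folds of H2-Aa, H2-Ab1, H2-Eb1 and Cd74 were 4.06, 3.26, 4.23 and 2.43. The apoptotic allogeneic and apoptotic isogeneic levels were then 1478 and 1428 CPM for H2-Aa and 4412 and 3765 CPM for Cd74. For H2-Ab1 they were 1371 and 1523 CPM, so there the apoptotic isogeneic library was the higher. Thinned to 1000 UMIs a cell the fold of H2-Aa was 8.98. With all cells kept, an H2-Aa UMI was found in 13.6% (5.17 to 27.4) of saline and 32.5% (18.6 to 49.1) of treated cells. Without cells holding a B cell marker UMI the treated share was 24.2% (11.1 to 42.3), and the saline share stayed at 13.6%. In the live allogeneic, live isogeneic and apoptotic isogeneic libraries that share was 18.75%, 39.6% and 19.4%, so the live isogeneic share was the highest. With all cells kept, the saline and treated shares were 5.20% and 5.38% in T-like cells, which lack class II in mice. Median depths were 2942.5 and 3708.5 UMIs in the monocyte-like cells and 3286 and 4191 in the T-like cells. Fabp4, a fatty acid binding protein, was lower at 602, 285, 276, 412 and 426 CPM, a fold of 0.474 (95% interval 0.328 to 0.677), and saline was the highest. These results rest on 44 and 40 cells.

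The H2-Aa promoter, at chr17:34287824-34288073 on the minus strand of GRCm38.p6, is shown because H2-Aa led this class. Class II promoters are read by CIITA through factors bound at conserved boxes, and capitals mark a CCAAT box, here in its inverted form ATTGG, which begins 48 bases before the start. CCAAT occurs on either strand in 33.9% of the RefSeq promoter windows.

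H2-Aa: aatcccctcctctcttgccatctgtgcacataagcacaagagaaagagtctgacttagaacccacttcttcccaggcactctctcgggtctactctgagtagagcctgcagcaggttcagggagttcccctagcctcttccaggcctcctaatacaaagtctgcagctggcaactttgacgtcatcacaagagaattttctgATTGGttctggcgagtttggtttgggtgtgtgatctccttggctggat

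**Figure D5:**
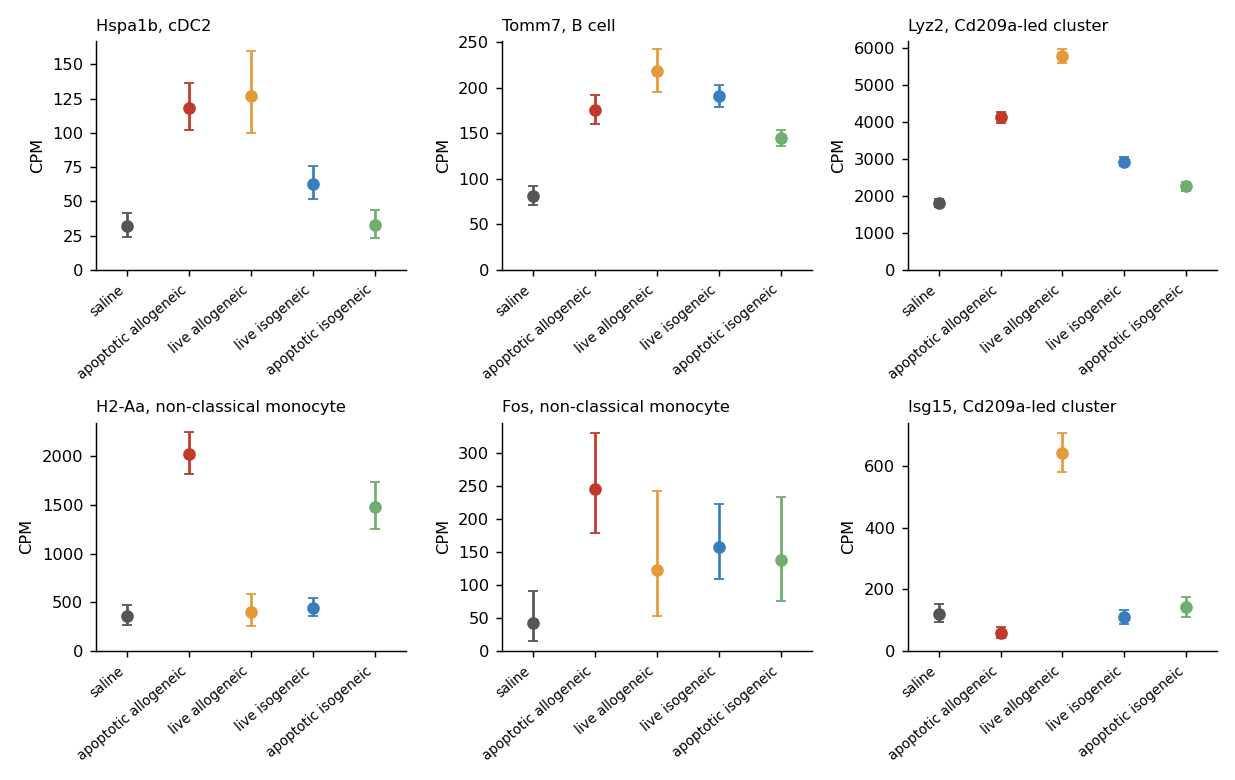
CPM in the 5 libraries (x axis; y axis CPM, starting at 0) for 6 gene-and-class pairs, with exact 95% Poisson intervals of the counts. Hspa1b in cDC2-like cells and Tomm7 in B-like cells are low in saline, Isg15 in the Cd209a-led cluster is the lowest in the apoptotic allogeneic library, and H2-Aa in non-classical-monocyte-like cells is the highest there.

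In red-pulp-macrophage-like cells, 129 of 1662 measured genes (7.76%) were past 1.5-fold higher and 109 (6.56%) past 1.5-fold lower, the only named class beside the monocyte-like cells with more genes higher than lower. Beside Fos and Jun, Nfkbiz, an inducible nuclear regulator of NF-kappaB, stood at 40, 176, 15.4, 12.5 and 48.4 CPM, a fold of 4.41 (95% interval 2.15 to 10.2), above all 4 others. Nfkbia, the inhibitor that NF-kappaB itself induces, was higher at 142 CPM in saline and 339 CPM in apoptotic allogeneic, with 34 of 96 treated UMIs in 1 cell, and Pim1, a survival kinase, at 44.4 CPM in saline and 173 CPM in apoptotic allogeneic. Receptors for dying cells and haemoglobin differed singly, while the apoptotic cell uptake list had 1 of 15 measured members past 1.5-fold higher, 2 past 1.5-fold lower and a median log2 ratio of 0.08. Mertk, the tyrosine kinase receptor through which macrophages engulf apoptotic cells, stood at 769, 437, 462, 412 and 463 CPM, a fold of 0.569 (95% interval 0.448 to 0.720). All 4 infused libraries were low for Mertk and saline was high, though without cells holding a UMI of a B cell marker the fold was 0.74. Cd163, the receptor for haemoglobin bound to haptoglobin, stood at 280.0, 130.5, 308, 137 and 103 CPM, a fold of 0.466 (95% interval 0.302 to 0.710). Emc10 was lower at 209 CPM in saline and 56.4 CPM in apoptotic allogeneic and Cd300a, a receptor for phosphatidylserine, at 240.0 CPM in saline and 134 CPM in apoptotic allogeneic. Markers of other cells also moved in this class. The erythroid list summed to 25925 CPM in saline and 1171 CPM in apoptotic allogeneic. The T cell list summed to 738 CPM in saline and 1351 CPM in apoptotic allogeneic. The B cell list summed to 4298 CPM in saline and 10845 CPM in apoptotic allogeneic, but most of its members did not follow that sum. Of 9 measured members 2 were past 1.5-fold higher and 4 past 1.5-fold lower, with a median log2 ratio of -0.45. A UMI of Cd79a, Cd79b or Ms4a1 was held by 19 of 63 saline cells and 19 of 76 apoptotic allogeneic cells. The part of these 3 lists in the differences of this class was not tested.

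In B-like cells, 172 of 7667 measured genes (2.24%) were past 1.5-fold higher and 307 (4.0%) past 1.5-fold lower. The 5 genes with the highest ratio were Tomm7, Ndufa1, Smim4, Ndufb1-ps and Fosb. Pclaf, a clamp-associated replication factor, was lower at 67.6 CPM in saline and 17.6 CPM in apoptotic allogeneic, a fold of 0.260 (95% interval 0.184 to 0.360), which was 0.621 with clustering of the 2 libraries alone and 0.126 with a mitochondrial limit of 5%. Cells with a UMI of Mki67 or Top2a were 3.35% in saline and 3.38% in the treated library. The S phase list had 0 of 17 measured members past 1.5-fold higher, 4 past 1.5-fold lower and a median log2 ratio of -0.16. E2f2, an activator of S phase genes, Nsd2, a histone methyltransferase, and Nom1 were among the 5 lowest ratios under the same limits. Class II genes had 0 of 14 measured members past 1.5-fold higher, 0 past 1.5-fold lower and a median log2 ratio of -0.02, and no B cell marker passed 1.5-fold.

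In T-like cells, 133 of 4157 measured genes (3.20%) were past 1.5-fold higher and 284 (6.83%) past 1.5-fold lower. Proliferation genes were higher with all cells kept, but a few cells carried them. Hmgb2, a chromatin protein of dividing cells, stood at 216, 587, 1691, 559 and 321 CPM, a fold of 2.72 (95% interval 2.30 to 3.21), with the live allogeneic library the highest and saline the lowest. Mki67, the proliferation antigen, stood at 27.8, 178, 483, 84.4 and 37.7 CPM, with 93 of its 149 treated UMIs in 1 cell. The G2 and mitosis list had 10 of 11 measured members past 1.5-fold higher, 0 past 1.5-fold lower and a median log2 ratio of 1.33, and 3 cells held 72.2% of the treated UMIs of the list. Without cells holding a UMI of a B cell marker that median was -0.21, and it was 0.065 with clustering of the 2 libraries alone. Without the B cell marker cells, Mki67 had 24 UMIs in saline and 4 in the treated library, at 28.6 and 5.49 CPM. Its fold was then 0.192 (95% interval 0.0484 to 0.559), so its direction turned. A UMI of Mki67 or Top2a was found in 3.35% (1.54 to 6.26) of saline and 5.91% (2.99 to 10.3) of treated T-like cells, with overlapping intervals, and in 22.1%, 8.14% and 3.71% of the live allogeneic, live isogeneic and apoptotic isogeneic ones. Class II genes, which mouse T cells do not express, had 0 of 7 measured members past 1.5-fold higher, 5 past 1.5-fold lower and a median log2 ratio of -1.31. Cd74 stood at 305, 69.3, 23.4, 262 and 169.5 CPM, and its fold of 0.227 was 0.55 without cells holding a B cell marker UMI, 0.725 with clustering of the 2 libraries alone and 0.0854 with a mitochondrial limit of 5%. The class II median was -0.42 without those cells and -0.35 with that clustering.

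In natural-killer-like cells, 79 of 2287 measured genes (3.45%) were past 1.5-fold higher and 189 (8.26%) past 1.5-fold lower. Il7r, the interleukin 7 receptor that marks less mature and innate lymphoid cells, stood at 121, 25.4, 103, 81.9 and 66.8 CPM, a fold of 0.209 (95% interval 0.0800 to 0.464), the lowest of the 5. Cd226, an activating receptor, stood at 124, 36.3, 26.8, 98.2 and 95.8 CPM, a fold of 0.293 (95% interval 0.133 to 0.584), low in both allogeneic libraries. Stmn1, a microtubule regulator of dividing cells, stood at 277, 76.2, 789.8, 117 and 139 CPM, a fold of 0.275 (95% interval 0.164 to 0.441), with the live allogeneic library the highest. Mki67 had 85 UMIs in saline and 0 in the treated library, at least 19.0-fold lower. The G2 and mitosis list had 0 of 6 measured members past 1.5-fold higher, 5 past 1.5-fold lower and a median log2 ratio of -1.49, with 72.0% of its saline UMIs in 3 cells, and its median turned to 0.20 when cells were thinned to 1000 UMIs. Cells with a UMI of Mki67 or Top2a were 5.52% in saline and 2.47% in the treated library. Natural killer markers themselves did not pass 1.5-fold in any of 13 measured members.

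In erythroid-like cells, 180 of 7434 measured genes (2.42%) were past 1.5-fold higher and 212 (2.85%) past 1.5-fold lower. Histone genes led: Hist1h2an stood at 60.9, 173, 184, 190.2 and 146 CPM, a fold of 2.85 (95% interval 2.39 to 3.41), and Hist1h4d at 215 CPM in saline and 447 CPM in apoptotic allogeneic. Saline was the lowest of the 5 for Hist1h2an. In endothelial-like cells, 93 of 1595 measured genes (5.83%) were past 1.5-fold higher and 132 (8.28%) past 1.5-fold lower. Met, the receptor of hepatocyte growth factor, stood at 210.4, 55.7, 100.3, 187 and 176 CPM, a fold of 0.265 (95% interval 0.121 to 0.522), the lowest of the 5. Hadha, a beta-oxidation enzyme, was lower at 185 CPM in saline and 66.8 CPM in apoptotic allogeneic and the mitochondrial chaperone Hspa9 at 153 CPM in saline and 55.7 CPM in apoptotic allogeneic, while Tomm7 was higher at 89.2 CPM in saline and 278 CPM in apoptotic allogeneic. B cell markers moved in this class, with 3 of 3 measured members past 1.5-fold higher and sums of 670.4 CPM in saline and 1659 CPM in apoptotic allogeneic, and their part was not tested. In megakaryocyte-and-platelet-like cells, 187 of 3146 measured genes (5.94%) were past 1.5-fold higher and 254 (8.07%) past 1.5-fold lower. The class's own marker list summed to 630 CPM in saline and 1258 CPM in apoptotic allogeneic, with 2 of 4 measured members past 1.5-fold higher and 2 past 1.5-fold lower. In saline that sum was below those of the erythroid list (1757 CPM) and the basophil and mast cell list, so the class name is weakly backed. Pf4, a platelet chemokine, stood at 309, 983, 1054, 2598 and 2122 CPM, but 297 of its 487 treated UMIs were in 1 cell. The mast cell proteases Cma1 and Cpa3 were lower at 319.7, 8.08, 41.9, 0 and 666 CPM and 373, 56.5, 209, 6.47 and 475 CPM, and the basophil and mast cell list summed to 873 CPM in saline and 287 CPM in apoptotic allogeneic in this class. The B cell list summed there to 27.4 CPM in saline and 396 CPM in apoptotic allogeneic. The part of the B cell and the basophil and mast cell lists was not tested.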

How the data were processed

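Single-cell 3' RNA libraries were made from spleen cells, 1 library for each of 5 infusions. The deposited matrices hold UMI counts per gene (32285 genes) and barcode, made by the authors with Cell Ranger 4.0 on mm10, per the submitters' processing notes; no file header records further filters. Barcodes of 1000 or more UMIs and 500 or more genes, up to 10% of the UMIs mitochondrial, were kept, and doublets were called with Scrublet, which marked 0.207% of saline and 0.378% of apoptotic allogeneic cells and so hardly acted. All 5 libraries were clustered together in scanpy 1.11.5 (2000 variable genes, 30 principal components, 15 neighbours, Leiden resolution 1, leidenalg 0.10.2), with numpy 2.4.6, scipy 1.17.1 and pandas 2.3.3 in Python 3.11.15. Of 31 clusters 25 were named from marker lists. A cluster whose second class scored at least 0.6 of its first stayed unnamed, a limit added after seeing the data.

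UMIs were summed over each class with at least 30 cells and 50000 UMIs in both libraries and given as CPM. Log2 ratios used a pseudocount of 10 CPM, so they understate folds of low genes; genes with fewer than 50 UMIs over both sums were not measured. No test was made with 1 library a group, and a size of 1.5-fold marks a gene as higher or lower. The ratios were checked on simulated data. Members, marker lists and the 30 gene lists were chosen with earlier results of these data known.

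Genes named are, per class, the 5 highest and 5 lowest ratios among genes with a UMI in at least 10% of cells of 1 library, the 12 highest and 12 lowest medians over classes, and up to 4 members past 1.5-fold from each list. Immunoglobulin, T cell receptor, haemoglobin, mitochondrial, ribosomal and sex-linked genes, and genes at under 0.1 of their CPM in their highest class, are left out of the first 2 rules. Genes outside these rules, such as shared ribosomal genes, Rpl39, mt-Nd3, Lyz2, Cd86 and Cd83, were chosen after their values were seen. Alternatives were another scaling, UMI minimum, pseudocount, depth, mitochondrial limit, doublet handling and clustering. Promoters come from a RefSeq table of GRCm38.p6, matched by symbol.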

Additional observations from a re-analysis of the deposited data

Results flagged for a closer look

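The G2 and mitosis list went in opposite directions in 2 lymphocyte classes. Its median log2 ratio of apoptotic allogeneic to saline was 1.33 in T-like cells, where 10 of 11 measured members were past 1.5-fold higher, and -1.49 in natural-killer-like cells, where 5 of 6 were past 1.5-fold lower. Each direction rests on few cells, since 3 cells held 72.2% of the list's UMIs in the apoptotic allogeneic T-like cells and 72.0% in the saline natural-killer-like cells. With clustering of the 2 libraries alone the T-like median was 0.065, and at a clustering resolution of 2 the medians were 0.0046 in T-like and -0.02 in natural-killer-like cells. The difference between the classes was not tested.

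The MHC class II list also went in opposite directions, with a median of -1.31 in T-like cells (5 of 7 measured members past 1.5-fold lower) and 2.01 in non-classical-monocyte-like cells (4 of 6 past 1.5-fold higher). The T-like median was -0.42 without cells holding a UMI of a B cell marker and -0.35 with clustering of the 2 libraries alone. B cell markers moved the same way, from 786 to 378 CPM summed in T-like cells and from 385 to 1247 CPM in non-classical-monocyte-like cells, and their part in the result was not tested. This difference was not tested either.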

How the results depend on the processing

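No paired analysis was possible because each group is 1 library. A single gene stayed when its fold under an alternative lay inside the exact interval of its main fold. A list median had a limit of its own, and counts and percentages of genes stayed when within 1.5-fold. Reversed was used only where the main fold was past 1.5-fold or the main list median at least 0.2 in size. Smaller values that changed sign were counted as stayed or moved. Of the single-gene and list values under the alternatives, 1346 stayed, 67 moved and 10 reversed. Of the counts, shares and medians that answer a comparison, 212 stayed and 37 moved. The cause of these changes was not tested.

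The count of genes shared higher (31) was 11 with cells thinned to 1000 UMIs, 283 with no UMI minimum and 7 with transcripts of at least 1000 bases only; the count shared lower (3) was 1, 398 with no minimum and 9 with a minimum of 20 UMIs. The median percentage of genes higher per class (3.48) was 7.78 thinned, 5.44 with median-of-ratios scaling, 7.04 with a minimum of 20 UMIs and 17.4 with none, and that of genes lower (6.70) was 12.97 and 25.3 with the last 2. The ribosomal protein median (-0.02) was 0.063 with median-of-ratios scaling and 0.018 with CPM over genes other than ribosomal, mitochondrial, immunoglobulin and haemoglobin ones. Thinning turned the S phase median in cDC1-like cells from 0.40 to -0.23, the immediate early median from 0.45 to -0.091 in endothelial-like and from 0.58 to -0.16 in red-pulp-macrophage-like cells (-0.042 with a mitochondrial limit of 5%), and the G2 and mitosis median in natural-killer-like cells from -1.49 to 0.20.

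Without cells that hold a B cell marker UMI, the G2 and mitosis median in T-like cells turned from 1.33 to -0.21, the immunoglobulin median in non-classical-monocyte-like cells from 2.86 to -0.59 and the type I interferon median in mature-DC-like cells from -0.29 to 0.069. Clustering the 2 libraries alone turned the fold of Il1b in mature-DC-like cells from 0.294 to 1.204 and the immunoglobulin median in red-pulp-macrophage-like cells from 2.69 to -0.49. It gave T-like shares of 11.4% in both libraries and a mature-DC-like share of 5.04% in saline. With no limit on the second class the T-like shares were 11.1% (apoptotic allogeneic) and 11.2% (saline), and at resolution 2 the erythroid-like shares were 1.23% and 0.760%. The B cell marker, transcript length and second-class alternatives were chosen after seeing the data.

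A mitochondrial limit of 5% moved these shares (apoptotic allogeneic, then saline where both moved): B-like 21.3% and 17.2%, cDC1-like 13.7% and 14.4%, cDC2-like 15.5% and 17.0%, natural-killer-like 4.96% and 7.08% and pDC-like 2.35% and 2.76%. In saline alone it moved T-like to 11.1%, endothelial-like to 1.51%, mature-DC-like to 5.83%, megakaryocyte-like to 2.32% and non-classical-monocyte-like to 2.38%, and in apoptotic allogeneic alone red-pulp-macrophage-like to 2.23%. Medians over classes kept their sign under all 13 alternatives for the type I interferon (-0.23 to -0.097), immediate early (0.08 to 0.26) and nuclear oxidative phosphorylation lists (0.08 to 0.17). For some genes 1 cell held most of the treated UMIs, as for Mki67 in T-like, Il12b in mature-DC-like and Pf4 in megakaryocyte-and-platelet-like cells.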
